A study of Mus musculus with 12 samples.

Results

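The CC chemokines of the mouse liver were followed through Con A-induced hepatitis, in control mice, in mice given Con A and PBS, and in mice given Con A and human Wharton's jelly mesenchymal stem cells (hWJ-MSCs). The 9 listed CC chemokines were Ccl2, Ccl3, Ccl4, Ccl5, Ccl6, Ccl7, Ccl9, Ccl12 and Ccl24, and they were taken as the genes of those names in the deposited expression table. That table holds 11289 genes, and 5 of the 9 were among them: Ccl2, Ccl5, Ccl6, Ccl7 and Ccl9. Ccl3, Ccl4, Ccl12 and Ccl24 were not analysed here.

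CC chemokines are small secreted proteins that attract leukocytes through G protein-coupled receptors, and they are named for a pair of adjacent cysteines near their start. In inflamed liver they are made by resident macrophages, endothelial and stellate cells, hepatocytes and the leukocytes that arrive, and Ccl2 and Ccl7 draw Ccr2-bearing monocytes from the blood. Con A is a plant lectin that activates T cells, and its injection is a model of T cell-mediated hepatitis.

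Liver RNA was sequenced from 12 C57BL/6J mice, 4 in each of 3 groups. Livers of the mice given Con A were collected 24 h after it, and the labels give no collection time for the controls. The control mice are labelled as controls with no further agent named. The Con A + PBS mice had a single dose of 15 mg/kg Con A in the tail vein with PBS 30 min later. The Con A + hWJ-MSCs mice had the same dose, followed 30 min later by intravenous cells in PBS. The sample labels put the mice at 8 to 10 weeks of age and the cells at 2000000 per mouse, and call them umbilical cord MSCs. The study's methods give a younger age range and a smaller number of cells, and state that the mice were male. The transplanted cells are human and the table holds mouse genes. Each mouse gave 1 library of whole liver, so fewer cells of a type and less RNA per cell cannot be told apart.

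The values are whole numbers that had been normalized between mice before deposit, not raw counts. Every mouse had the median 352 and the maximum 341028, and totals ran from 17649654 to 17657159, so sequencing depth is unknown and a group's precision rests on its 4 mice. The first principal component of all genes, with 64.8% of the variance, ran from -79.6 to -66.9 in controls, from 37.5 to 63.8 in Con A + PBS and from -0.88 to 33.2 in Con A + hWJ-MSCs. The 12 listed hepatocyte markers summed to between 893245 and 1647899 in every mouse, so the label liver and its defining markers go together.

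Every gene in the table reached 64 in at least 2 mice. Ccl2, Ccl5 and Ccl7 were under 64 in all 4 control mice, so these 3 are in the table through the mice given Con A, in which they were high. A member that was low in every group would not be listed, and the counts of members given here describe those listed and are no support for a direction. Ccl6 and Ccl9 were at 64 or above in all 12 mice.

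The 5 genes lie on chromosome 11 in 2 clusters (mm10). Ccl2 spans chr11:82035571-82037453 and Ccl7 spans chr11:82045712-82047525, both on the plus strand, with 8.3 kb between them. No other protein-coding gene lies wholly within that gap. Ccl5 at chr11:83525778-83530518, Ccl9 at chr11:83572919-83578636 and Ccl6 at chr11:83587882-83593087 lie on the minus strand, with 9.2 kb between Ccl9 and Ccl6. Ccl7 and Ccl5 are 1478.3 kb apart, with 29 protein-coding genes between them, other CC chemokines included. The annotation puts Gm17268, typed as protein-coding, on the strand opposite Ccl2 and E230016K23Rik opposite Ccl6. The library kit does not mark strand, so reads from these partners cannot be told apart where they overlap.

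**Figure D1:**
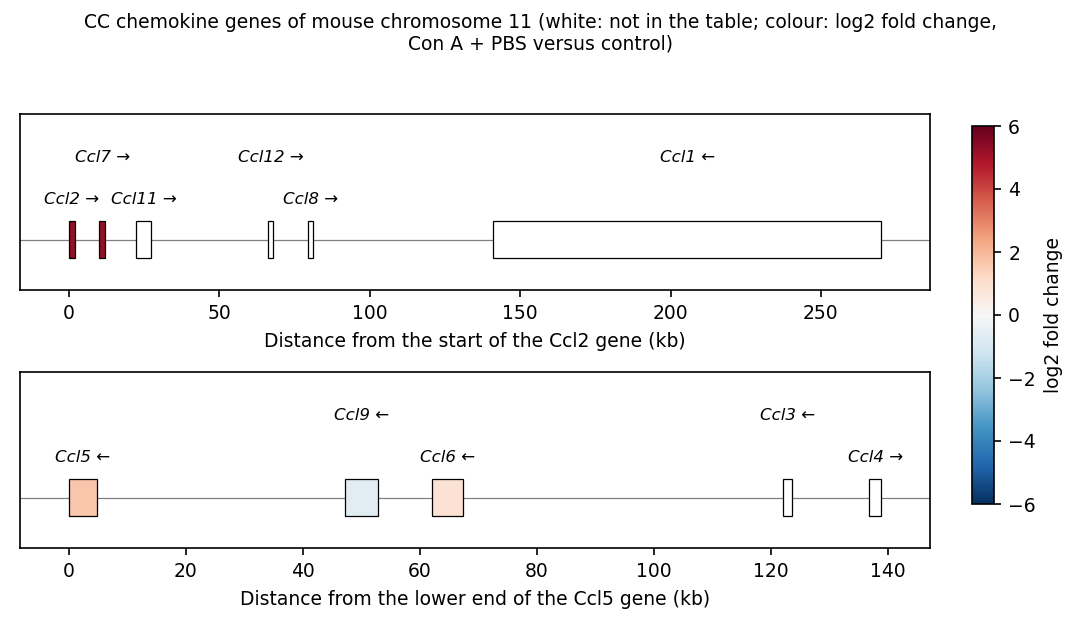
CC chemokine genes of chromosome 11, drawn to scale within each cluster, with distance in kb on the x axis (upper panel from the start of Ccl2, lower panel from the lower end of Ccl5), arrows for strand and colour for the log2 fold change in Con A + PBS versus control. Ccl2 and Ccl7 have log2 fold changes of 5.29 and 5.30 with a pseudocount of 1, on which the size for Ccl7 depends. The neighbours Ccl9 and Ccl6 have -0.66 and 0.92, and white genes are not in the table.

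The stretch of coding sequence around the adjacent cysteines shows what makes these genes a family. It is given 5′ to 3′ for the named transcript of each gene, 66 bases long, with the codons of the adjacent cysteine pair in capitals.
Ccl2: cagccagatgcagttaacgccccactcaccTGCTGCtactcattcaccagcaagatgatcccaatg
Ccl7: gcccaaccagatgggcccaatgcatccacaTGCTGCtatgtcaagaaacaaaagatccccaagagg
Ccl5: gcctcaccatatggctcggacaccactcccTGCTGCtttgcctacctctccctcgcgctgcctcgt
Ccl6: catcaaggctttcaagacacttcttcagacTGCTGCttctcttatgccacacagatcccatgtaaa
Ccl9: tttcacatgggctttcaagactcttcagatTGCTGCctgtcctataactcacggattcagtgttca

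Each coding sequence had exactly 1 adjacent cysteine pair, and all 5 used the same codons for it. The pair lay in exon 2 of 3 in Ccl2, Ccl7 and Ccl5 and in exon 3 of 4 in Ccl6 and Ccl9. The coding sequences held 4 cysteine codons in Ccl2, 5 in Ccl7 and Ccl5, and 6 in Ccl6 and Ccl9. Ccl2 and Ccl7 were identical at 72.4% of 290 aligned coding bases and Ccl6 and Ccl9 at 70.8% of 342, against 58.0% to 69.8% in the other pairs. With gaps counted as differences, Ccl6 and Ccl9 stood highest at 65.1%, while Ccl2 and Ccl7 had 47.2%, within the 40.9% to 50.9% of the other pairs, since the coding sequence of Ccl2 is longer (447 bases against 294). The longest run of bases shared by the transcripts was 23 in the first pair and 25 in the second, shorter than the 150-base reads.

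Con A administration raised 4 of the listed members and lowered 1 in the liver after 24 h. Ccl2 and Ccl7, the monocyte chemoattractants, changed most. Ccl5, which T cells and NK cells secrete in large amounts, and Ccl6, a rodent chemokine of myeloid cells, rose less. Ccl9, also a rodent myeloid chemokine and a Ccr1 ligand, fell. A gene was called when its limma adjusted p was under 0.05 and it changed by over 1.5-fold, and by this rule 5 of 5 members were called, where 38.8% of all genes were (19.5% up and 19.2% down). For 5 of 5 members the values of the 2 groups did not overlap, as for 50.4% of all genes.

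Ccl2, the main ligand of Ccr2, had normalized values of 12, 22, 31 and 12 in the control mice, and 862, 694, 605 and 795 in the Con A + PBS mice. Every Con A + PBS mouse was above every control mouse, with a mean of 739 ± 113 (SD, n = 4) against 19.2 ± 9.14. The log2 fold change was 5.29 (SE 0.42, 95% confidence interval 4.38 to 6.19, adjusted p = 1.35e-06 by limma), or 39.1-fold, rank 49 among the rises of all genes. The exact permutation test gave p = 0.0286 (two-sided), the smallest value that 4 mice against 4 allow.

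Ccl7, a second monocyte chemoattractant that binds Ccr2 and Ccr1, was listed at 3, 6, 0 and 12 in the control mice. The Con A + PBS mice had 217, 186, 172 and 122, all above the controls, with a mean of 174.2 ± 39.6 (SD, n = 4). The fitted log2 fold change was 5.30 (SE 0.64, 95% confidence interval 3.92 to 6.68, adjusted p = 2.96e-05 by limma), on the scale of log2(value + 1). Its size depends on the low control values: it was 4.59 without control replicate 3, the mouse listed at 0, and 3.63 with a pseudocount of 10, and the call held in both. Ccl7 stood beside Ccl2 in rank, at 48, with the pseudocount of 1. With a pseudocount of 10 the log2 fold change of Ccl2 was 4.72, above the 3.63 of Ccl7, so the equal standing depends on the pseudocount.

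Ccl5 binds Ccr1 among other receptors and acts on T cells, monocytes and eosinophils. It had values of 22, 34, 16 and 25 in the control mice and of 72, 83, 66 and 84 in the Con A + PBS mice, again without overlap. The means were 24.2 ± 7.5 and 76.2 ± 8.73 (SD, n = 4). The log2 fold change was 1.65 (SE 0.24, 95% confidence interval 1.13 to 2.18, adjusted p = 0.000115 by limma).

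Ccl6 had values of 78, 114, 90 and 86 in the control mice and of 174, 233, 128 and 172 in the Con A + PBS mice. The lowest Con A + PBS mouse was above the highest control mouse, and the log2 fold change was 0.92 (SE 0.21, 95% confidence interval 0.46 to 1.38, adjusted p = 0.00287 by limma). Ccl9, its neighbour, had 1352, 1106, 1284 and 1030 in the control mice and 748, 856, 765 and 651 in the Con A + PBS mice. Here every Con A + PBS mouse was below every control mouse, and the log2 fold change was -0.66 (SE 0.17, 95% confidence interval -1.03 to -0.28, adjusted p = 0.0064 by limma). With a threshold of 2-fold in place of 1.5-fold, neither Ccl6 nor Ccl9 was called.

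**Figure D2:**
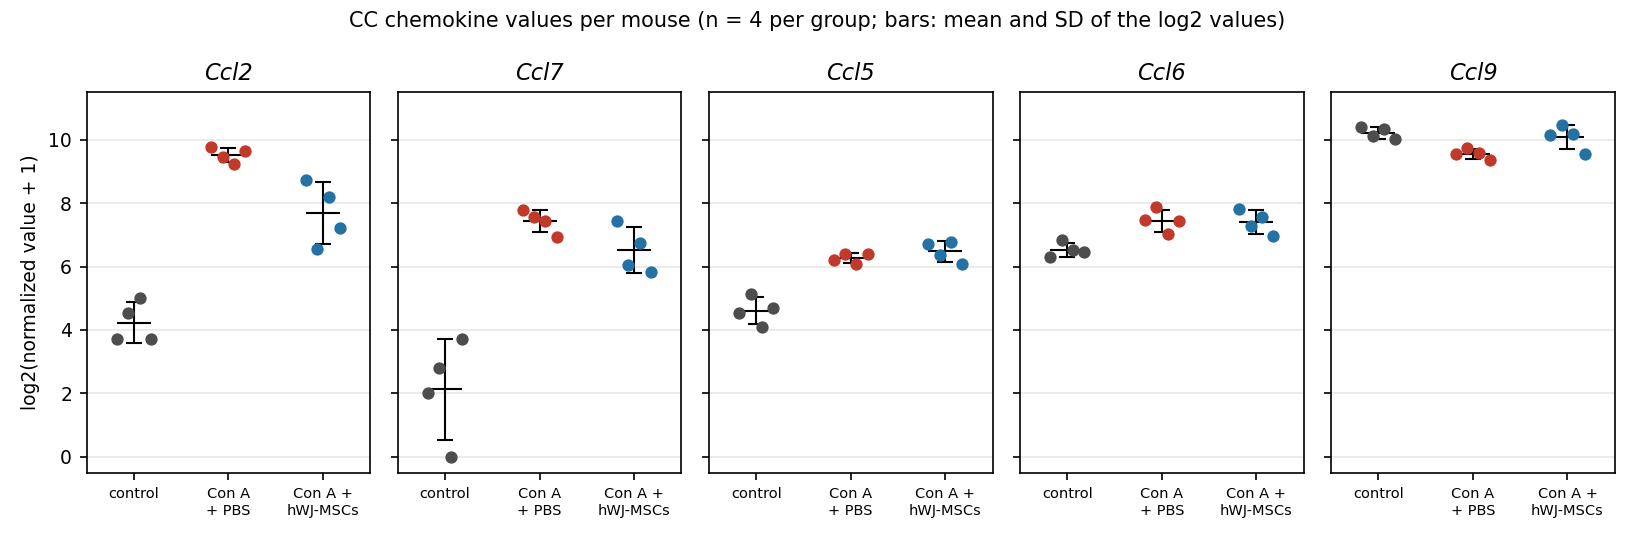
Normalized value of each CC chemokine on the log2(value + 1) scale (y axis) by group (x axis), with 1 point per mouse and bars for the mean and SD of the 4 log2 values. Ccl2 in Con A + hWJ-MSCs (93 to 421) lies between the control mice (12 to 31) and the Con A + PBS mice (605 to 862), while Ccl5, Ccl6, Ccl7 and Ccl9 overlap between the Con A groups.

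Levels were compared between members per kb of the named transcript, on the assumption that the deposited values had not already been divided by length, which the sources used here do not state. As deposited, with no division by length, Ccl9 and Ccl2 were close in Con A + PBS livers, at 755 ± 84.0 and 739 ± 113 (SD, n = 4), and the transcript of Ccl9 is longer (3006 bases against 813). In control livers Ccl9 stood highest at 396.9 ± 50 per kb (SD, n = 4), followed by Ccl6 at 63.9 ± 10.8, Ccl5 at 45.6 ± 14.1 and Ccl2 at 23.7 ± 11.2, with Ccl7 lowest. The means of Ccl6 and Ccl5, of Ccl5 and Ccl2, and of Ccl2 and Ccl7 lay closer than the sum of their SDs. In Con A + PBS livers Ccl2 stood highest per kb, at 909 ± 139, ahead of Ccl9 at 251.2 ± 27.9 and Ccl7 at 217.5 ± 49.4. Ccl5 at 143.3 ± 16.4 and Ccl6 at 122.7 ± 29.9 came last, and in both the pair Ccl9 and Ccl7 and the pair Ccl5 and Ccl6 the means were within the sum of the SDs. In Con A + hWJ-MSCs livers the order was Ccl9 at 367.8 ± 90.3, Ccl2 at 294.3 ± 182, Ccl5 at 169.2 ± 37.0, Ccl7 at 124.5 ± 66.5 and Ccl6 at 119.4 ± 30.1. There the means of all neighbours in the order lay within the sum of their SDs.

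With hWJ-MSCs given after Con A, the question was whether the chemokine response differed from that with PBS. Ccl2 was lower in the mice given cells, and no other member was called. In all, 1 of 5 members was called, where 8.58% of all genes were (4.2% up and 4.38% down). Both counts rest on single mice: over all genes, 969 calls became 7 without Con A + PBS replicate 1 or without Con A + hWJ-MSCs replicate 3, 18 without Con A + hWJ-MSCs replicate 2, 285 and 563 without Con A + PBS replicates 4 and 3, 506 without Con A + hWJ-MSCs replicate 1, and 1575 without Con A + PBS replicate 2. The values of the 2 groups did not overlap for 1 of 5 members, as for 23.5% of all genes. This comparison shares its Con A + PBS mice with the one before.

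Ccl2 had values of 421, 93, 294 and 149 in the Con A + hWJ-MSCs mice, against 605 to 862 with PBS. Each mouse given cells was below each mouse given PBS, and the group with cells spread more widely, with a mean of 239.2 ± 148 (SD, n = 4) against 739 ± 113. The log2 fold change was -1.84 (SE 0.42, 95% confidence interval -2.75 to -0.93, adjusted p = 0.0254 by limma), a 3.58-fold lower value, and the exact permutation test gave p = 0.0286. The call did not hold when Con A + PBS replicate 1 was left out (adjusted p = 0.0766), nor without Con A + PBS replicate 4 (0.0542), Con A + hWJ-MSCs replicate 2 (0.0761) or Con A + hWJ-MSCs replicate 3 (0.0574), although the log2 fold change stayed between -2.19 and -1.47 in all 12 fits that left out 1 mouse.

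Ccl7 had values of 173, 65, 105 and 56 in the Con A + hWJ-MSCs mice, against 122 to 217 with PBS. One mouse with cells lay within the range of the PBS mice, and the log2 fold change of -0.91 had a 95% confidence interval of -2.29 to 0.47 (adjusted p = 0.326 by limma). These data leave room for a fall as large as that of Ccl2 and for no fall.

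Ccl5 and Ccl6 overlapped between the groups. Ccl5 had 104, 82, 108 and 66 with cells against 66 to 84 with PBS, and its log2 fold change was 0.22 (95% confidence interval -0.31 to 0.74, adjusted p = 0.549 by limma). Ccl6 had 224, 154, 187 and 123 with cells against 128 to 233 with PBS, with a log2 fold change of -0.04 (95% confidence interval -0.50 to 0.42, adjusted p = 0.908 by limma). Both intervals lie above the estimate for Ccl2. The sign for Ccl6 is not settled, as leaving out a single mouse turned it.

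Ccl9 had values of 1134, 1398, 1149 and 741 with cells against 651 to 856 with PBS. In 3 of 4 mice it was above every PBS mouse and in the range of the controls or higher, and replicate 4 was within the PBS range. The log2 fold change was 0.52 (95% confidence interval 0.14 to 0.90, adjusted p = 0.0614 by limma), or 1.43-fold, which missed both thresholds. Without Con A + hWJ-MSCs replicate 4 it was 0.70 with an adjusted p of 0.0186, and Ccl9 was then called, while in the other 11 of the 12 fits that left out 1 mouse it was not past 0.05, with a lowest log2 fold change of 0.39 (adjusted p = 0.168).

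**Figure D3:**
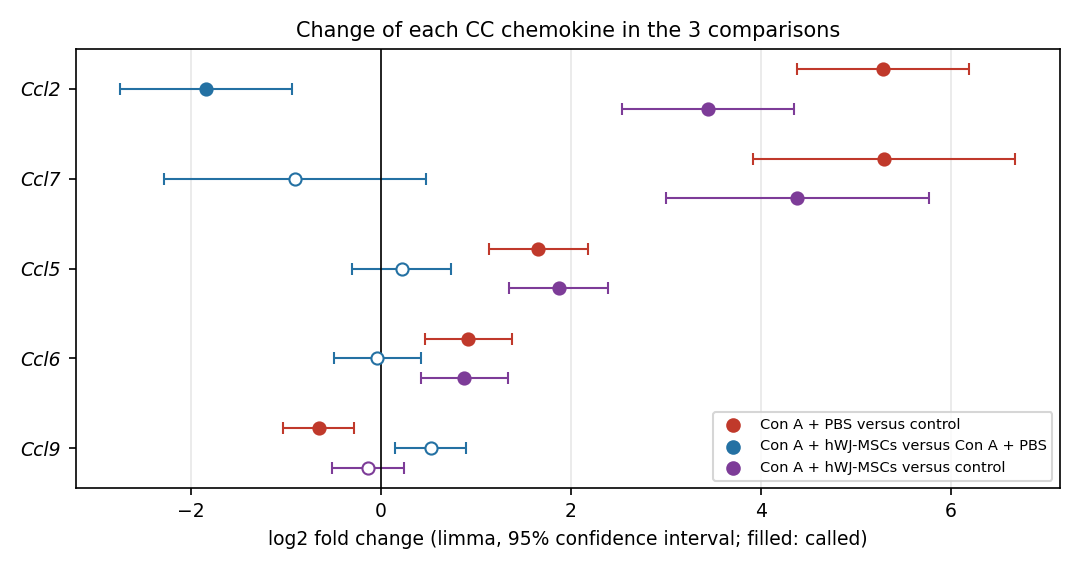
Log2 fold change of each CC chemokine (x axis) with its 95% confidence interval from limma in the 3 comparisons (colours), with filled points for called genes. Between the mice given cells and those given PBS only Ccl2 is filled, at -1.84, and the interval of Ccl9 (0.14 to 0.90) lies above 0 without the gene being called.

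Against the control mice, 4 members were higher in the livers given Con A and hWJ-MSCs. Ccl2 was higher by 3.45 on the log2 scale (95% confidence interval 2.54 to 4.35, adjusted p = 6.18e-05 by limma), or 10.9-fold. Ccl7 was higher by 4.39 (adjusted p = 0.000228, 3.68 without control replicate 3 and 2.79 with a pseudocount of 10), Ccl5 by 1.87 (adjusted p = 9.55e-05) and Ccl6 by 0.87 (adjusted p = 0.00595, not called with a threshold of 2-fold). The log2 fold change of Ccl9 was -0.14 (95% confidence interval -0.51 to 0.24, adjusted p = 0.555 by limma). Hence 4 of 5 members were called, all up, where 26.7% of all genes were (13.6% up and 13.1% down), and the groups did not overlap for these 4, as for 37.9% of all genes.

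The part of the Con A change that was absent in each mouse given cells was expressed as a percentage of the log2 difference between the Con A + PBS and control means, as a description. For Ccl2 it was 15.1%, 56.1%, 24.8% and 43.3% in replicates 1 to 4, or 34.8 ± 18.4% (SD, n = 4). For Ccl9 it was 90.2%, 136% and 93.1% in replicates 1 to 3 and -3.07% in replicate 4. Ccl9 thus lay near the control level in 3 mice and at the Con A + PBS level in 1. For Ccl7 the mean was 17.2 ± 13.8%, for Ccl6 4.6 ± 40.3% and for Ccl5 -13.1 ± 19.8%, where a negative value is a mouse beyond the Con A + PBS mean. Ccl2 and Ccl7 were both lowest on this measure in replicate 1 among mice given cells, and their highest values were in replicate 2 for Ccl2 and in replicate 4 for Ccl7.

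The ratio of neighbouring genes was taken within each mouse. A single scale factor per mouse leaves it unchanged. The deposited values, however, share both their median and their maximum between mice, and a normalization that does this can change the ratio. The log2 ratio of Ccl2 to Ccl7 was 1.99, 1.89, 1.81 and 2.69 in the Con A + PBS mice and 1.28, 0.51, 1.48 and 1.40 in the Con A + hWJ-MSCs mice. The ranges did not overlap and the difference was -0.93 (SE 0.30), with an exact permutation p = 0.0286 and an adjusted p = 0.0571 over the 6 tests of ratios. In the controls the ratio ran from 0 to 5, set by Ccl7 values between 0 and 12, and a comparison with them has little meaning.

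The log2 ratio of Ccl6 to Ccl9 went from -3.69 ± 0.35 (SD, n = 4) in controls to -2.11 ± 0.32 with Con A + PBS, a difference of 1.57 (SE 0.24). The exact permutation p was 0.0286 and the adjusted p 0.0571, which did not pass 0.05, although no mouse of the 2 groups overlapped. An exact p of 0.0286 is the smallest that 4 mice against 4 allow. Its adjusted value depends on how many of the 6 tests reach it, so the adjustment cannot decide this difference. With hWJ-MSCs the ratio was -2.68 ± 0.35, lower than with PBS by a difference of -0.56 (SE 0.24, exact permutation p = 0.0571, adjusted 0.0857), with overlap. It differed from the controls by 1.01 (SE 0.25, exact permutation p = 0.0286, adjusted 0.0571), without overlap.

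**Figure D4:**
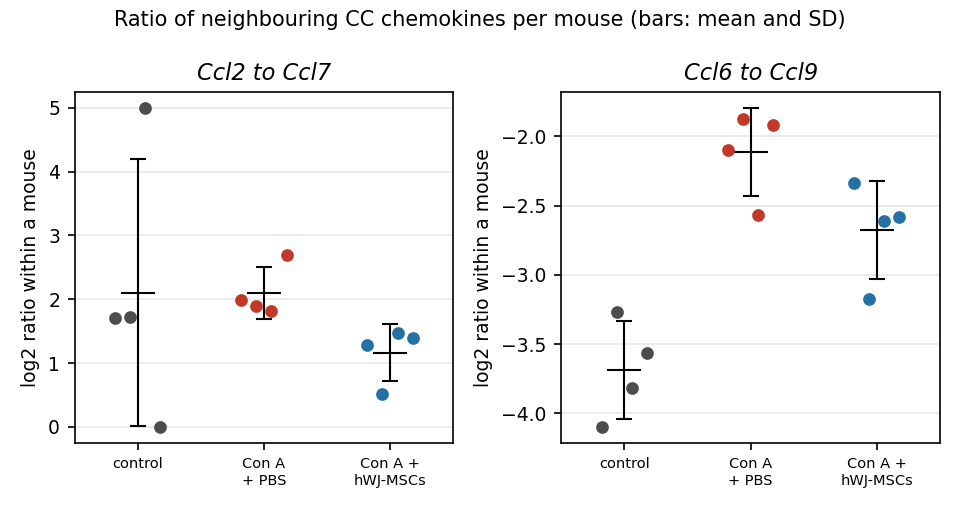
Log2 ratio of normalized values (y axis) of Ccl2 to Ccl7 and of Ccl6 to Ccl9 in each mouse by group (x axis), with bars for the mean and SD of 4 mice. The Ccl2 to Ccl7 ratio is lower in all Con A + hWJ-MSCs mice (0.51 to 1.48) than in all Con A + PBS mice (1.81 to 2.69), and the control mice range from 0 to 5.

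The promoters of Ccl6 and Ccl9, the neighbours whose values moved in opposite directions with Con A, could be set side by side. RefSeq (GRCm38.p6) gave a promoter entry for these 2 of the 5 genes. The 250 bases before each start are shown 5′ to 3′ on the minus strand, Ccl6 at chr11:83593088-83593337 and Ccl9 at chr11:83578637-83578886, with motif matches in capitals.
Ccl6: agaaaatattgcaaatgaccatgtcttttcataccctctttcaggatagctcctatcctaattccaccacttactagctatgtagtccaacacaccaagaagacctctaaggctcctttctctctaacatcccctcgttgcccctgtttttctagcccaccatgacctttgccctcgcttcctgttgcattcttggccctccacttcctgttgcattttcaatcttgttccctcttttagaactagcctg
Ccl9: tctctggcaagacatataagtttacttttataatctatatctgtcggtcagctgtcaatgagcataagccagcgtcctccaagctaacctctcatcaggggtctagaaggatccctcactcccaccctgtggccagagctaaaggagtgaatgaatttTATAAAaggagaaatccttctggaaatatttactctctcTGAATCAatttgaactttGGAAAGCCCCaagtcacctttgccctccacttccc

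The motifs searched were an NF-kB core (GGG and CC with any 5 bases between), AP-1 (TGANTCA), GAS (TTCNNNGAA), an ISRE core (GAAA and GAAA with any 2 bases between), a C/EBP core (TTGCNNAA) and a PU.1 core (GAGGAAGT) on both strands, and a TATA box (TATAAA) on the strand of the gene. The Ccl9 window held 1 NF-kB core match 35 bases before the start, 1 AP-1 match at 53 and 1 TATA box at 92. None of the searched letters was found in the Ccl6 window. The NF-kB core letters occur in 45.8% of 32851 promoter windows of this length, AP-1 in 6.75%, GAS in 7.02%, the ISRE core in 2.98%, the C/EBP core in 9.56%, the PU.1 core in 2.44% and the TATA box in 7.59%. A match describes the letters and not the binding of a factor.

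The CC chemokine receptors Ccr1, Ccr2 and Ccrl2 were in the table, and they moved by unequal amounts with Con A. They are described singly, with no count over the receptor list. Ccr1, a receptor of Ccl5, Ccl7 and Ccl9 on monocytes and neutrophils, had values of 14, 16, 4 and 28 in control mice and 123, 162, 110 and 130 in Con A + PBS mice. It rose by 3.24 on the log2 scale (SE 0.44, adjusted p = 7.19e-05 by limma), with no overlap. With cells it had 174, 72, 92 and 92, a log2 fold change of -0.35 against PBS (95% confidence interval -1.31 to 0.61, adjusted p = 0.597 by limma).

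Ccr2, the receptor of Ccl2 and Ccl7 on inflammatory monocytes, had 142, 178, 150 and 133 in control mice and 242, 257, 246 and 246 in Con A + PBS mice, a rise of 0.72 on the log2 scale (SE 0.13, adjusted p = 0.000538 by limma). With cells it had 310, 316, 238 and 230, and the log2 fold change against PBS was 0.13 (95% confidence interval -0.15 to 0.41, adjusted p = 0.508 by limma).

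Ccrl2, an atypical receptor that binds chemerin and does not signal, had 29, 24, 16 and 22 in control mice and 352, 138, 195 and 340 in Con A + PBS mice. It rose by 3.36 on the log2 scale (SE 0.44, adjusted p = 5.56e-05 by limma). With cells it had 154, 44, 140 and 44, overlapping the PBS mice, with a log2 fold change of -1.55 (SE 0.44, adjusted p = 0.0414 by limma). That call is not firm: it was lost in 9 of the 12 fits that left out 1 mouse, with adjusted p up to 0.117, and in the fit of the 8 mice compared (0.0723). Ccr1 and Ccrl2 were under 64 in all 4 control mice, like Ccl2, Ccl5 and Ccl7.

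**Figure D5:**
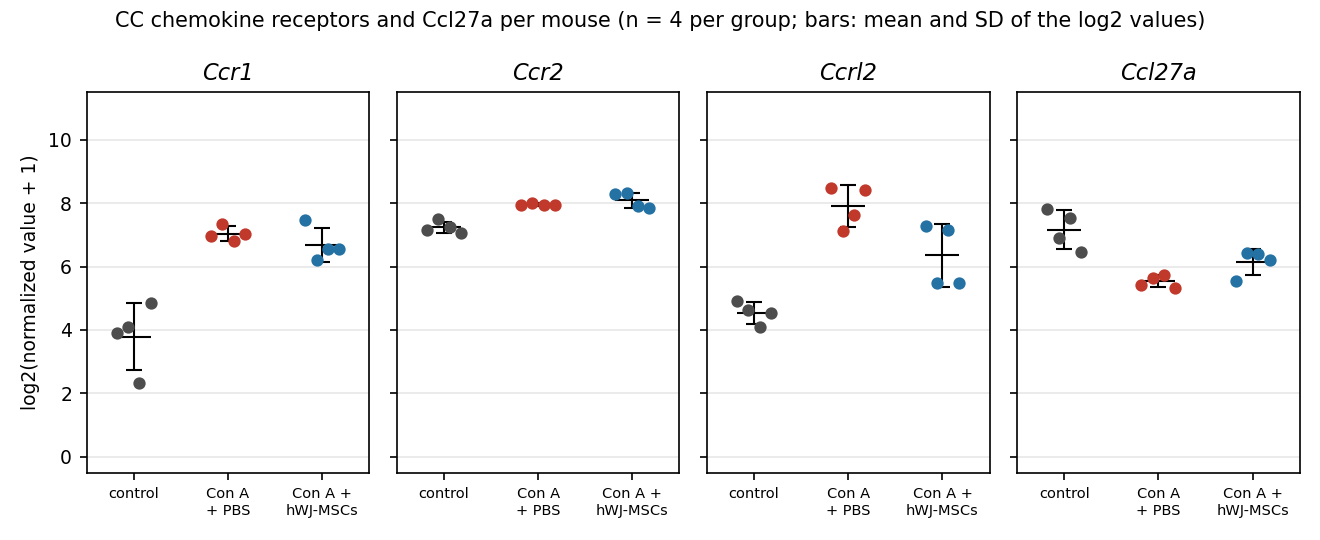
Normalized value on the log2(value + 1) scale (y axis) of Ccr1, Ccr2, Ccrl2 and Ccl27a by group (x axis), with 1 point per mouse and bars for the mean and SD of the 4 log2 values. Ccr1 and Ccrl2 are higher in every Con A + PBS mouse than in every control mouse, Ccr2 is higher by less, and Ccl27a is lower with Con A.

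Ccl27a, which draws T cells to skin, was the 1 gene in the table among 15 other CC chemokines listed. It fell by 1.64 on the log2 scale with Con A (SE 0.29, adjusted p = 0.000448 by limma), from 86 to 223 in control mice to 39 to 52 in Con A + PBS mice. It was at 64 or above in all 4 control mice and in no Con A + PBS mouse. Its place in the table thus rests on the groups in which it was higher. With cells it had 46 to 85, a log2 fold change of 0.62 against PBS (adjusted p = 0.148 by limma). Mouse Ccl27a has near-identical gene copies, so its values are uncertain.

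Among 26 genes in the table that carry signals from chemokine receptors, 6 rose and 3 fell with Con A and 17 were not called, a share near that of all genes. The G protein subunits Gnb1 and Gng12 rose by 0.86 and 0.89 on the log2 scale (adjusted p = 3.91e-05 and 7.18e-05 by limma), and the integrin-activating GTPase Rap1b by 0.88 (adjusted p = 0.000263). None of the 26 was called with cells against PBS, where 8.58% of all genes were. Of 15 cytokines known to induce chemokines, 4 were in the table. The macrophage growth factor Csf1 rose by 0.67 and the alarmin Il33 by 1.87, and Il1a fell by 0.93 (adjusted p = 0.000457, 0.000798 and 0.00336 by limma), and none was called with cells against PBS.

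Of 16 genes whose products cut or present chemokines, 3 rose and 4 fell with Con A, where 38.8% of all genes were called. Dpp4, the protease that trims the start of Ccl5 and other chemokines, fell by 2.18 on the log2 scale (2530 ± 275 to 591 ± 213, SD, n = 4, adjusted p = 5.39e-05 by limma). Mmp9, a neutrophil metalloprotease that cleaves chemokines, rose to 121 ± 14.5 and Mmp8 to 75.5 ± 17.9 from low control values. With cells against PBS, 1 of the 16 was called, lower, where 8.58% of all genes were. Of 6 genes of alternative macrophage activation in the table, 2 rose and 2 fell with Con A: Chil3 rose by 3.07, while the scavenger receptors Cd163 and Mrc1 fell by 3.68 and 2.59 (adjusted p = 6.49e-07, 9.14e-06 and 1.2e-05 by limma).

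Markers of the cells that make or answer CC chemokines changed with Con A. All 10 Kupffer cell markers in the table fell with Con A, where 19.2% of all genes did, and their summed level was 6093 to 9355 in control mice, 840 to 1641 with PBS and 1320 to 2270 with cells. The Kupffer cell lectin Clec4f fell from 1526 ± 165 to 51.5 ± 16.3 (SD, n = 4), by 4.9 on the log2 scale (adjusted p = 9.09e-07 by limma). Their part in the fall of Ccl9 was not tested. The median log2 fold change of the 10 was -2.986 with Con A, 0.467 with cells against PBS and -2.995 with cells against control, where Ccl9 had -0.66, 0.52 and -0.14. None of the 10 was called with cells against PBS, where 8.58% of all genes were.

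The 9 of 13 neutrophil markers that were in the table each rose with Con A, where 19.5% of all genes did, with a summed level of 1093 to 5039 in control mice, 74215 to 342296 with PBS and 58923 to 74557 with cells. Most of that sum is Lcn2, which hepatocytes also make. S100a9 rose from 20.2 ± 6.55 to 630.5 ± 203 and was 519.2 ± 168 with cells (SD, n = 4). Ngp, Mmp8 and Retnlg were listed at 0 in some control mice. The 7 of 21 T and NK cell markers in the table each rose (again against 19.5%), with a summed level of 112 to 181 in control mice, 822 to 1383 with PBS and 901 to 1367 with cells, and Cd8a and Cd28 were each listed at 0 in 1 control mouse. Low markers, like low chemokines, are in the table only where some mice reached 64, so these counts too describe the genes listed. The cytotoxic granule protease Gzmb rose from 11.8 ± 2.63 to 518 ± 146 and was 392.8 ± 134 with cells. Lck rose from 16.8 ± 6.24 to 109 ± 26.1 and was 85.5 ± 4.43 with cells. Gzma rose from 8.75 ± 4.11 to 140.5 ± 17.5 and was 179 ± 93.8 with cells, so its mean was higher with cells than with PBS, unlike those of Gzmb and Lck.

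Of 12 monocyte and macrophage markers in the table, 7 rose and 4 fell with Con A, where 19.5% of all genes rose and 19.2% fell, and their summed level overlapped between groups (11427 to 15082, 11956 to 15222 and 13145 to 19844). The endotoxin co-receptor Cd14 rose from 55.5 ± 4.8 to 4710 ± 700 (SD, n = 4) and was lower with cells, at 1972 ± 730 (log2 fold change -1.33, adjusted p = 0.0188 by limma). The other marker of this list called with cells against PBS was higher: F10, coagulation factor X, which hepatocytes also make, with a log2 fold change of 0.93 (adjusted p = 0.0287 by limma), named after its value was seen. Ly6c1 rose from 8.5 ± 5.2 to 116.2 ± 9.25 and was 75.0 ± 12.5 with cells. Of the markers that fell, Emr1, which encodes the macrophage antigen F4/80, had a log2 fold change of -2.86 with Con A, Csf1r of -2.57, Lyz2 of -1.39 and F10 of -0.76. With cells against PBS no neutrophil marker and no T and NK cell marker was called, where 8.58% of all genes were, a share at which lists of 9 and 7 genes could hold none. The part of these cells in the rise of Ccl2, Ccl5, Ccl6 and Ccl7 was not tested.

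Of the remaining lists, 5 of 12 hepatocyte markers fell with Con A, where 19.2% of all genes did, among them Cyp3a11 by 3.05, Ass1 by 2.44 and Apoa1 by 1.73 on the log2 scale, and their summed level was 1377346 to 1647899 in control mice, 1063772 to 1106305 with PBS and 893245 to 966781 with cells. Among 15 endothelial and stellate cell markers 1 rose and 7 fell, and the sinusoidal lectin Clec4g fell from 604 ± 148 to 9.0 ± 5.35 (SD, n = 4). With cells against PBS, 1 of these 15 was called higher and 2 lower, where 8.58% of all genes were called. Of the 12 hepatocyte markers, 1 was called in that comparison, lower. Ighm was the B cell marker in the table, 1 of 10, and it fell by 0.92 on the log2 scale (adjusted p = 0.0478 by limma). None of the 11 eosinophil and basophil markers was in the table.

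Genes whose mouse-to-mouse variation was most like that of each member were sought among 10508 genes, by Pearson's r of the deviations from the group means over 12 mice, as a description. For Ccl7 the gene was its receptor Ccr1, with r = 0.93, a value to which the control mice, low in both genes, contributed most. For Ccl6 it was Clec7a, the beta-glucan receptor of myeloid cells, with r = 0.95, and for Ccl5 it was Sla, an adaptor of lymphocyte receptor signaling, with r = 0.94. Ccl2 paired with Zc3h15 (r = 0.93) and Ccl9 with Ppil2 (r = 0.98). Of these 5 partners only Ccr1 was called in any comparison. Among the members, Ccl5 varied with Ccl7 (r = 0.71) and with Ccl6 (r = 0.70), while Ccl2 and Ccl7 had r = -0.04. The values for Ccl7 include the control mice, where it was 0 to 12, and the r with Ccl5 too came mostly from these. In the mice given cells both genes were higher in replicates 1 and 3 (Ccl2 421 and 294, Ccl7 173 and 105) than in replicates 2 and 4 (Ccl2 93 and 149, Ccl7 65 and 56). These points share the libraries and their scaling, and the largest of so many correlations is high by construction.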

How the data were processed

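Poly(A) RNA of mouse liver was sequenced as 150-base paired-end reads. The submitters' processing notes name Bowtie2 2.2.1, RSEM 1.2.18 and mm10. The deposited values are normalized expression scores rounded to whole numbers by the authors. How they were normalized is not given in the sources used here. The methods name DESeq2 for the study's own test, which needs raw counts and was not run here.

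Values were analysed as log2(value + 1) with limma 3.58.1 (lmFit and eBayes with a trend) in R 4.3.3, in 1 fit of 12 mice with 3 contrasts. The p-values were adjusted over 11289 genes by the Benjamini-Hochberg method. A gene was called at adjusted p below 0.05 and fold above 1.5. The scripts were tested on simulated data. Single values were compared by two-sided exact permutation tests. Fold changes are on the log2(value + 1) scale, on which those of low genes depend on the pseudocount.

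Groups came from the sample labels. Replicate numbers name different animals and do not pair them. The members and gene lists were chosen with earlier results of these data known. Genes named were the members, the CC receptors and other CC chemokines in the table (1 receptor is not reported here), the 3 genes of lowest limma p with Con A among those called in each other list, and the gene most correlated with each member among genes with a mean of at least 64. Markers listed at 0 and the monocyte and macrophage markers that fell were named after their values were seen. Alternatives were another pseudocount, filter, threshold, set of mice and block, median centring (which changes little, as the medians are equal), quantile normalization, eBayes without a trend, and leaving out each mouse. Gene models were GENCODE M21 (mm10), which held 11243 of 11289 gene identifiers. Promoters were from RefSeq.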

Additional observations from a re-analysis of the deposited data

How the results depend on the processing

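Con A + PBS versus control called 3 CC chemokines in place of 5 at a mean value of at least 100, where Ccl5 and Ccl7 left the test by construction, and 3 with a fold above 2. Con A + hWJ-MSCs versus control called 2 in place of 4 at a mean of at least 100 and 3 with a fold above 2. The mean filter left 3544 and 2365 genes called in these comparisons. Over all genes a fold above 2 gave 2391, 353 and 1539 calls in place of 4379, 969 and 3015 for Con A against control, cells against PBS and cells against control. An unadjusted p gave 1697 in the second.

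Leaving out each mouse, the members called were 5 in all 12 fits of the first comparison, 0 to 2 in the second and 4 in all fits of the third, and genes called were 4093 to 4575, 7 to 1575 and 2654 to 3254. Log2 fold changes near 0 turned in these fits. That of Ccl6 with cells against PBS ranged from -0.19 to 0.11, with 0.10 without Con A + PBS replicate 2 and 0.11 without Con A + hWJ-MSCs replicate 4. That of Ccl9 with cells against control ranged from -0.26 to 0.042, the latter without Con A + hWJ-MSCs replicate 4. The Ccl2 to Ccl7 ratio differences ranged from -0.71 to 0.96, -1.03 to -0.71 and -1.64 to 0.026, and those of Ccl6 to Ccl9 from 1.44 to 1.73, -0.71 to -0.40 and 0.88 to 1.18. A pseudocount of 10 turned the Ccl2 to Ccl7 difference from control to 1.09 with Con A and 0.14 with cells, since it outweighs the Ccl7 values of 0 to 12.

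Same-numbered mice deviated together in some pairs only (r from -0.12 to 0.38), so the numbers were not taken as pairs. With the replicate block, 5, 1 and 4 members and 4429, 1297 and 3080 genes were called, and Ccl9 with cells against PBS had an adjusted p of 0.0281 but stayed under the 1.5-fold threshold. Alternatives for the receptors and Ccl27a were chosen after seeing the data. The count test with DESeq2 was not run, as the values are not counts. Depth is unknown, and 4 mice a group limit each value.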
